A study of Mus musculus with 16 samples.

Results

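Macrophages of MC38 tumors that were low in Cxcl9 are described here across the genes they expressed. They were chosen by their unique molecular identifiers (UMIs, each marking a single captured RNA molecule): a member was a tumor CD45+ cell with, among other limits, at least 5 UMIs of C1qa, C1qb and C1qc together, fewer than 3 of Cxcl9, and 0 of Cd3e, Cd3d, Cd3g, Ncr1 and Klrb1c, which mark T cells and NK cells. The rule was met by 1545 of 9083 tumor CD45+ cells, in a series of 37609 cells from 16 libraries of tumor and spleen. Levels of the genes in the rule describe that choice, and C1q also serves to sort the members into bands.

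The study compared mice with and without Aire, the thymic regulator that lets T cells meet tissue antigens during their selection, under PD-1 blockade or a control antibody. All mice were littermates, 8 weeks old, with subcutaneous tumors of MC38, a mouse colon adenocarcinoma line derived from C57BL/6. The tumors were taken on day 19. The 4 groups were Aire+/+ with rat IgG2a isotype antibody, Aire+/+ with anti-PD1, Aire-/- with isotype antibody and Aire-/- with anti-PD1, and values are always given in that order. Live CD45+ cells of 4 to 6 pooled tumors made 1 library per group, and Aire was absent from the whole animal. Effects of a group, a mouse and a library therefore cannot be told apart, no test between groups was run, and every interval is a 95% interval for counting error only.

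The libraries held 2936, 2211, 1860 and 2076 cells with 38961020, 28780160, 24658741 and 23286592 UMIs. Members numbered 708, 446, 296 and 95, with medians of 13202, 13953, 12980 and 10972 UMIs and 3070, 3196, 2990 and 2645 genes per cell. The Aire-/- anti-PD1 library was thus the one with the fewest and shallowest members, and it takes part in 2 of the 4 comparisons between groups. Aire itself had 0, 2, 1 and 0 UMIs over all cells of each library and 0 in members, so these counts do not check the genotype. Any 2 of the libraries shared between 3 and 14 cell barcodes, and 0 of these were members in both.

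Macrophages are phagocytes that in tumors arise largely from circulating Ly6C-high monocytes, and they lose monocyte genes while they gain C1q, the starting component of the classical complement pathway. Cxcl9 encodes a chemokine that interferon-gamma induces and that draws in T cells.

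Outside the genes of the rule, most members held UMIs of the macrophage genes Ms4a7 and Csf1r. Ms4a7, a membrane protein of mature macrophages, stood at 1462, 1626, 1228 and 832 CPM, a gene's UMIs as a share of all UMIs of the cells on the usual scale of that unit. At least 1 Ms4a7 UMI was present in 82.8, 88.8, 75.3 and 62.1% of members, against 5.35, 3.86, 4.75 and 1.21% of the T cells of the same libraries (cells with at least 2 Cd3 UMIs and 0 of C1q), whose median depths were 8542, 7525, 9161 and 8546 UMIs. After thinning every cell to 5000 UMIs, which left out 46, 21, 20 and 6 members and 57, 42, 25 and 135 T cells, the shares were 79, 83.5, 72.5 and 52.8% against 4.55, 2.6, 2.22 and 1.01%. Csf1r, the receptor for the macrophage growth factor CSF1, had UMIs in 93.5, 93.3, 91.6 and 96.8% of members. Mertk, another macrophage gene, had UMIs in only 62, 47, 24 and 3 members. Ms4a7 was thus least widespread in the Aire-/- anti-PD1 library, whereas Csf1r was not. Xist was present in members of every library, at 164, 184, 176 and 183 CPM, with 0 UMIs of 4 Y-linked genes.

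Markers of T cells, NK cells, neutrophils and B cells made up few UMIs of the members, with some genes that macrophages also make, and those of dendritic cells made up more. The 11 measured T cell markers summed to 2.39, 2.86, 3.79 and 11.5 CPM in members, against 749, 1141, 1458 and 4074 CPM in all cells of the library. They were led by Lck, Il2rb, Lck and Cd28, and Cd3e, Cd3d and Cd3g were at 0 by the rule. The 9 NK markers summed to 56, 50.8, 93.5 and 125 CPM, of which the activating receptor gene Klrk1 gave 52.3, 49.9, 90.9 and 116. Klrk1 is also made by activated myeloid cells and T cells, and Ncr1, Klrb1c, Klra4 and Khdc1a were at 0 throughout. Neutrophil markers summed to 169, 72.2, 127 and 74.1 CPM, led by S100a8 or by Csf3r, and B cell markers to 30.3, 37.5, 23.9 and 30 CPM, against 21.2, 22.7, 11.6 and 14.1 in all cells, nearly all Cd79b. Markers of plasmacytoid dendritic cells summed to 1043, 1248, 1106 and 937 CPM, of which Bst2, also an interferon-inducible gene, gave 982, 1177, 1026 and 865, and those of mature dendritic cells to 564, 626, 508 and 404, mostly Cd83. Markers of type 2 conventional dendritic cells were at 149.7, 98.7, 168 and 214 CPM, and those of type 1 at 379, 307, 505 and 432, led by Irf8, which is also in the interferon-gamma-inducible list. T cell and NK markers were highest in the members of the Aire-/- anti-PD1 library, where T cells were also most common, and their part in the differences between groups was not tested.

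Near the lower limit on C1q, cells differed between libraries. Of the 1545 members, 96 had 5 to 9 C1q UMIs, and 50% of those had an Ms4a7 UMI, against 94.4% of the 857 members with at least 100. Just outside, 495 cells met the other limits but had 1 to 4 C1q UMIs, and 35.4% of them had Ms4a7. By library these cells were 21.3, 33.4, 47 and 58.9% of the number of members, and 38.4, 49.7, 25.9 and 12.5% of them had Ms4a7, or 58, 74, 36 and 7 cells. In the Aire-/- anti-PD1 library 2 of the 8 members with 5 to 9 C1q UMIs had Ms4a7. At the limit on Cxcl9, 58 members had 2 UMIs and 34 cells had 3. The limit on T cell and NK genes alone removed 40, 19, 25 and 28 cells, which is 5.65, 4.26, 8.45 and 29.5% of the number of members and so weighed most on the Aire-/- anti-PD1 library. The same rule found 2, 4, 5 and 2 cells in the tumor CD8+ libraries, 12, 5, 5 and 4 in spleen CD45+ libraries and 0, 1, 0 and 1 in spleen CD8+ libraries.

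Members were a smaller share of the CD45+ cells in the Aire-/- tumors, and most so with anti-PD1. The shares were 24.1% (22.6 to 25.7), 20.2% (18.5 to 21.9), 15.9% (14.3 to 17.7) and 4.58% (3.72 to 5.57), with exact Clopper-Pearson intervals. The Aire-/- share was 0.66 times (0.574 to 0.757) the Aire+/+ share with isotype antibody and 0.227 times (0.18 to 0.284) with anti-PD1. The anti-PD1 share was 0.837 times (0.741 to 0.943) the isotype share in Aire+/+ tumors and 0.288 times (0.226 to 0.363) in Aire-/- tumors. T cells, by contrast, made up 10.2, 14.1, 15.9 and 39.9% of the libraries and Ly6c2+ cells, taken as cells with at least 3 Ly6c2 UMIs and fewer than 5 of C1q, 27.7, 27.8, 29.5 and 20.7%. With anti-PD1, the Aire-/- share of the Ly6c2+ cells was 0.743 times (0.655 to 0.842) the Aire+/+ share and that of the T cells 2.84 times (2.49 to 3.24), so that members were also fewer relative to the Ly6c2+ cells. Numbers of cells per tumor were not measured here.

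Among the C1q+ macrophages, the members' share differed much less than among all cells. Cells that met the C1q, Cd3 and NK limits, whatever the other limits, numbered 1167, 786, 544 and 203. Members were 60.7% (57.8 to 63.5), 56.7% (53.2 to 60.2), 54.4% (50.1 to 58.7) and 46.8% (39.8 to 53.9) of them. The Aire-/- share of this smaller whole was 0.897 times (0.78 to 1.03) the Aire+/+ share with isotype antibody and 0.825 times (0.654 to 1.03) with anti-PD1, so that both intervals reached 1. Cells with at least 3 Cxcl9 UMIs that met the remaining limits were 12, 17, 18.4 and 32% of the same whole.

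**Figure D1:**
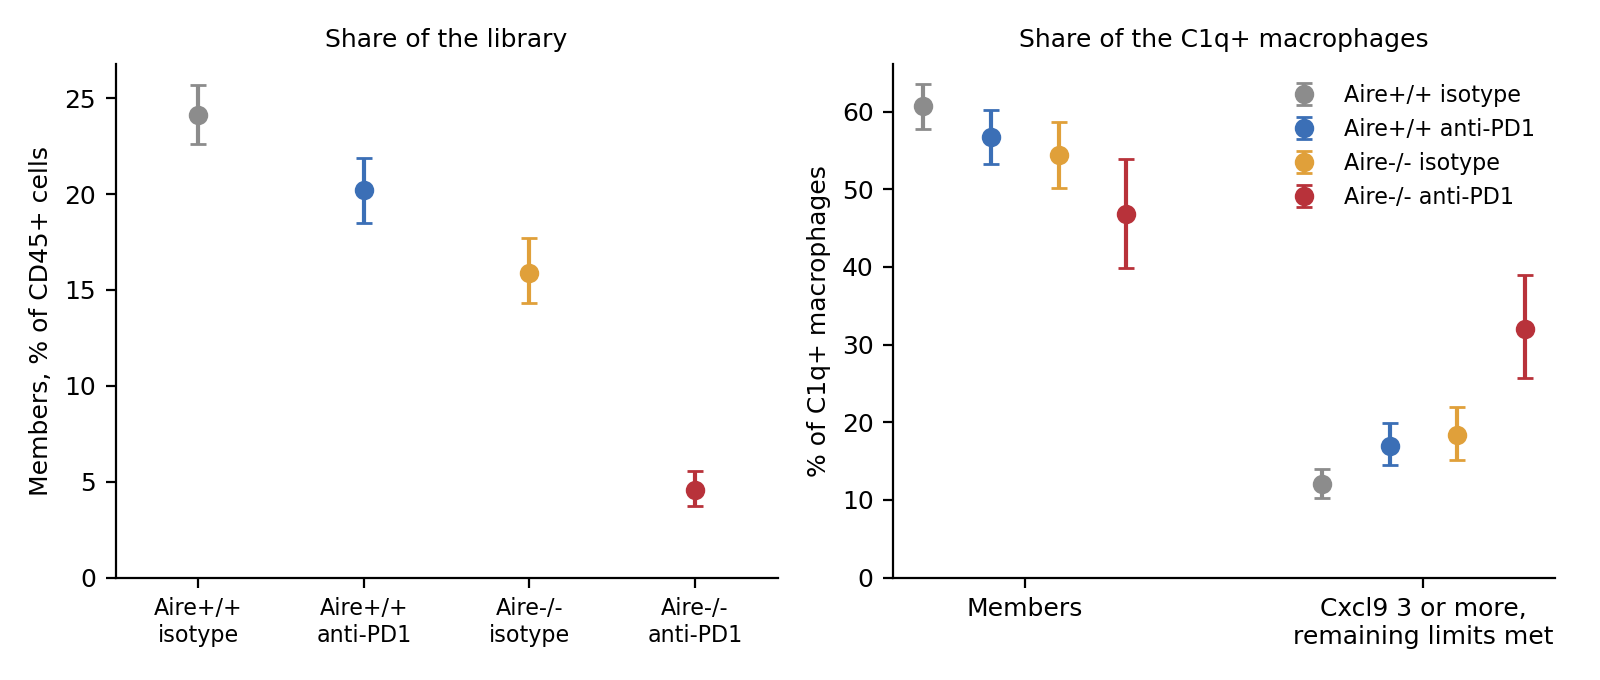
Left, members as a percentage of all CD45+ cells of each tumor library, with 24.1% in Aire+/+ isotype and 4.58% in Aire-/- anti-PD1. Right, members and cells high in Cxcl9 as percentages of the C1q+ macrophages of the same 4 libraries, where points are shares and bars are exact 95% intervals for counting error.

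Among themselves, the members ranged widely in how much C1q they held, with the lower end set by the rule. The median member had 121, 128, 100 and 72 C1q UMIs, with a 10th percentile of 17, 18, 12 and 11 and a 90th of 388, 424, 390.5 and 262. Monocyte genes were lower in the highest band of C1q. Members with 5 to 24 C1q UMIs held 8298, 9621, 12715 and 14301 CPM of the 11 monocyte genes, those with 25 to 99 held 6752, 7340, 10621 and 12243, and those with at least 100 held 3489, 3893, 5775 and 4777. Ms4a7 ran the other way, with 455, 563, 471 and 98.2 CPM in the lowest band and 1743, 1905, 1602 and 1477 in the highest. These bands of raw counts also followed depth. Members with 5 to 9 C1q UMIs had medians of 9762, 9992, 10310 and 10368 UMIs in all. Those with at least 100 had medians of 16579, 17263, 15765 and 13898. The part of depth in the differences between bands was not tested.

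Interferon-inducible genes varied with the monocyte genes across the same members. The rank correlation of the monocyte list with the type I interferon-inducible list, over 662, 425, 276 and 89 members thinned to 5000 UMIs, was 0.74, 0.72, 0.73 and 0.69, and with the interferon-gamma-inducible list 0.36, 0.40, 0.46 and 0.46. Each of these describes cells that share a library. Members with at least 100 C1q UMIs, the band lowest in monocyte genes, were 56.9, 60.8, 50.3 and 35.8% of the members, so the Aire-/- anti-PD1 library had the largest part of its members in the lower bands.

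**Figure D2:**
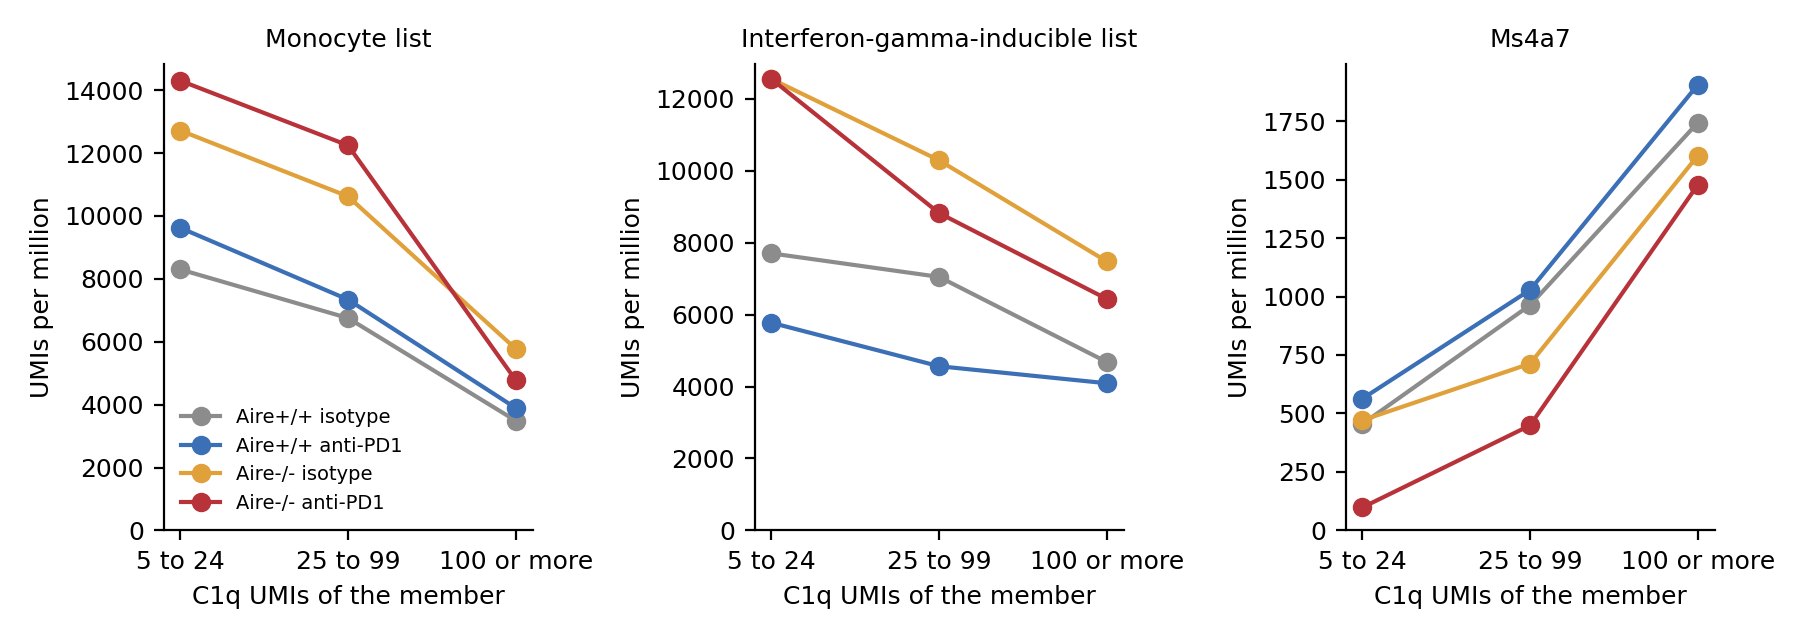
Summed level of the monocyte list and of the interferon-gamma-inducible list, and the level of Ms4a7, in CPM, for members of each of the 4 libraries in 3 bands of C1q UMIs. Both lists were lower in the highest band than in the lowest in each library, and Ms4a7 was higher.

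Among genes by level in members, ribosomal RNA precursor sequence counted under Rn45s led with a mean of 51310 CPM, at 40808, 48609, 51786 and 64039 by library while ribosomal protein genes made up 14.1, 13.6, 11.2 and 12% of UMIs, ahead of ferritin heavy chain Fth1 at 17836, the MHC class II invariant chain Cd74 at 14310 and beta-actin Actb at 11189. Over 2760 genes with at least 20 thinned UMIs in each library, the median ratio of variance to mean between members was 1.16, 1.16, 1.19 and 1.22, close to the 1 that counting alone gives. Chemokine genes were among those that varied most from member to member. For the T cell attractant Ccl5 that ratio was 33.9, 31.6, 48.8 and 96.7, with thinned UMIs in 30.8, 35.1, 36.2 and 42.7% of members, and for Cxcl10 it was 37.7, 33.7, 33.9 and 45.2. Cd74 also varied, at 71.7, 66, 56.4 and 50.7, although 89.7, 92.2, 94.2 and 96.6% of the thinned members had it.

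Between genotypes with isotype antibody, members of the Aire-/- tumors held more RNA of interferon-inducible and monocyte genes. All 25 interferon-gamma-inducible genes compared, all 31 type I interferon-inducible genes and all 11 monocyte genes were above the Aire+/+ level, with median log2 ratios of 0.74, 0.58 and 0.61 against -0.05 over all genes, of which 3376 of 7734 were above 0. Of 7734 genes with at least 100 UMIs over the 2 libraries, 98 (1.27%) differed by more than 2-fold, 58 (0.75%) higher and 40 (0.517%) lower in Aire-/-. With mitochondrial and ribosomal protein genes left out of the total, 42 were higher and 50 lower, so which direction held more genes depended on the scaling.

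With anti-PD1, the same comparison again put interferon-gamma-inducible and monocyte genes higher in Aire-/- members. All 24 interferon-gamma-inducible genes compared and all 11 monocyte genes were above the Aire+/+ level, with medians of 0.84 and 1.49 against -0.07 over all genes, of which 2641 of 6240 were above 0, while the type I interferon list stood at 0.21 with 25 of 31 genes above 0, and at -0.04 in members with at least 100 C1q UMIs. The summed UMIs of the interferon-gamma-inducible list had a log2 ratio of 0.70 with isotype antibody and 0.99 with anti-PD1, and those of the monocyte list 0.78 and 0.89, so which list differed more depended on the measure. Lysosomal, lipid-associated and cell cycle genes were mostly below it. Of 6240 genes compared, 258 (4.13%) differed by more than 2-fold, 87 (1.39%) higher and 171 (2.74%) lower. Many of these had few UMIs in the 95 members: among genes with at least 500 UMIs, 26 were higher and 11 lower.

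The interferon-gamma-inducible genes past 2-fold were led by guanylate-binding proteins and immunity-related GTPases, which act on pathogens inside cells. Gbp2 stood at 227, 148, 572 and 631 CPM, both Aire-/- libraries above both Aire+/+ libraries, for a log2 ratio between genotypes of 1.33 (1.25 to 1.42) with isotype antibody and 2.09 (1.95 to 2.23) with anti-PD1. Its UMIs were in 62.6, 55.6, 80.7 and 83.2% of members, and in 39.1, 38.3, 46.4 and 45.2% of T cells. Thinned, the shares were 45.5, 36.7, 67.8 and 69.7% of members and 28.1, 26.4, 34.8 and 29.9% of T cells. Gbp4, Gbp5, Iigp1 and Tgtp1 were also past 2-fold in both comparisons, with log2 ratios from 1.04 to 1.35 with isotype antibody and from 1.26 to 1.55 with anti-PD1. Nos2, the inducible nitric oxide synthase, stood at 11.1, 4.82, 22.7 and 22.9 CPM and was past 2-fold with isotype antibody, at 1.03 (0.62 to 1.44). With anti-PD1 its 32 and 26 UMIs were too few to be counted, although its log2 ratio was 2.25 (1.45 to 3.04). Ifitm1, which restricts virus entry, and Socs1, a feedback inhibitor of cytokine signaling, passed 2-fold with anti-PD1 at 1.83 (1.74 to 1.91) and 1.31 (1.09 to 1.53), but Socs1 was at -0.04 in members with at least 100 C1q UMIs. In all, 6 of the 25 genes were past 2-fold with isotype antibody and 7 of 24 with anti-PD1, against 0.75 and 1.39% of all genes in that direction.

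Other genes of that list were higher in Aire-/- members by less than 2-fold. The chemokine Cxcl10 stood at 1247, 863, 1963 and 1485 CPM, with log2 ratios of 0.65 (0.61 to 0.69) and 0.78 (0.70 to 0.86). Irf1, a transcription factor of the interferon response, had ratios of 0.43 and 0.78. Cd274, which encodes the PD-1 ligand PD-L1, stood at 133, 119, 209.6 and 202 CPM, with ratios of 0.65 (0.53 to 0.78) and 0.76 (0.55 to 0.98). The other PD-1 ligand gene, Pdcd1lg2, is outside that list and was past 2-fold with isotype antibody. It stood at 6.06, 5.57, 16.3 and 15 CPM, which is 1.43 (0.91 to 1.95) with isotype antibody, and had too few UMIs to be counted with anti-PD1. Both ligand genes were thus higher in both Aire-/- libraries than in both Aire+/+ libraries, but for Pdcd1lg2 this rests on 17 UMIs with anti-PD1, 41.2% of them in 1 member, and 24.6% of the Aire-/- isotype UMIs also lay in 1 member. Of the list of checkpoint ligand and B7 family genes, 8 of 11 were above 0 with isotype antibody and 4 of 10 with anti-PD1. Its medians were 0.34 and -0.06, against -0.05 and -0.07 over all genes.

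Among the 11 monocyte genes, 4 were past 2-fold higher with isotype antibody and 7 with anti-PD1, against 0.75 and 1.39% of all genes. Vcan, the matrix proteoglycan versican, stood at 14.6, 12.4, 41.4 and 89.1 CPM, for log2 ratios between 1.18 and 1.83 with isotype antibody and between 2.42 and 3.29 with anti-PD1. Thbs1, the matrix protein thrombospondin 1, stood at 162, 237, 464 and 948 CPM, for intervals of 1.42 to 1.62 and 1.89 to 2.12, and in T cells of the same libraries at 52, 27.3, 39.8 and 28. Both genes thus differed between genotypes with either antibody, whereas the acute-phase protein gene Hp and the clotting factor gene F13a1 did so with anti-PD1, at 2.53 (2.10 to 2.97) and 1.49 (1.11 to 1.86), with 0.17 and 0.11 under isotype antibody. With anti-PD1, members with at least 100 C1q UMIs held 160.3 and 205 CPM of Thbs1 in Aire+/+ and Aire-/- tumors, so it was not past 2-fold there. Ly6c2, the surface antigen that defines inflammatory monocytes, was at 1054, 1540, 2126 and 2454 CPM in members and at 994, 1368, 1678 and 1747 CPM in T cells, the same order in both. Ccr2, the receptor by which monocytes leave the marrow, stood at 230.5, 184, 284 and 394 CPM, with ratios of 0.30 (0.20 to 0.40) and 1.10 (0.94 to 1.26).

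Both lists were higher in Aire-/- members in each band of C1q UMIs, though with anti-PD1 least in the highest band. The summed interferon-gamma-inducible genes had log2 ratios between genotypes of 0.70, 0.55 and 0.68 in the 3 bands of C1q with isotype antibody, and of 1.12 (1.05 to 1.19), 0.95 (0.89 to 1.01) and 0.65 (0.60 to 0.71) with anti-PD1. For the summed monocyte genes the ratios were 0.62, 0.65 and 0.73, then 0.57 (0.51 to 0.63), 0.74 (0.69 to 0.79) and 0.30 (0.23 to 0.36). When the genes were compared in members with at least 100 C1q UMIs alone, a choice made after the values were seen, the median over the 8 monocyte genes left with anti-PD1 was 0.23 in place of 1.49 and that over 20 interferon-gamma-inducible genes 0.34 in place of 0.84. Only 34 members of the Aire-/- anti-PD1 library remained there, and F13a1 turned from higher to lower, at -2.42.

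**Figure D3:**
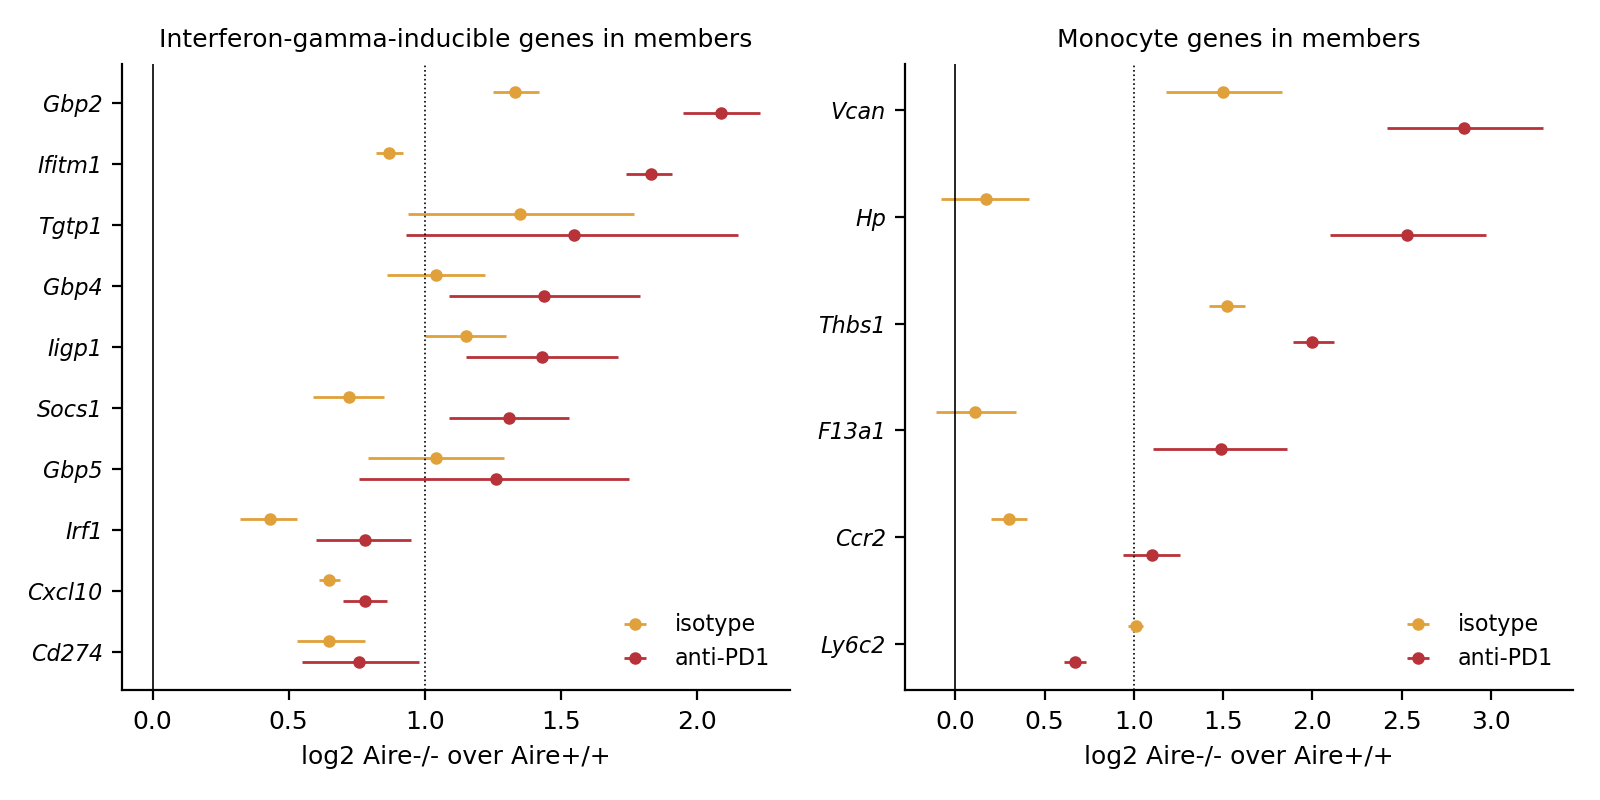
Log2 ratio of Aire-/- over Aire+/+ in members for some of the interferon-gamma-inducible and monocyte genes named in the text, each with at least 100 UMIs in both comparisons. Irf8, also in the interferon-gamma-inducible list, is not drawn. Points are ratios of summed UMIs, bars are 95% intervals for counting error and the dotted line marks 2-fold. Every point lies above 0, from F13a1 at 0.11 with isotype antibody to Gbp2 at 2.09 and Vcan at 2.85 with anti-PD1.

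Type I interferon-inducible genes were higher in Aire-/- members mainly with isotype antibody. Isg15, a ubiquitin-like modifier, stood at 2066, 1713, 3372 and 2503 CPM, for log2 ratios of 0.71 (0.68 to 0.74) and 0.55 (0.49 to 0.61). Ifit3, an antiviral RNA-binding protein gene, was at 437, 383, 689 and 383 CPM, which gives 0.66 (0.59 to 0.73) and 0.00 (-0.15 to 0.15). Cmpk2, a mitochondrial nucleotide kinase gene and the single gene of the 31 past 2-fold, against 0.75% of all genes, had 1.08 (0.92 to 1.23) and 0.18 (-0.19 to 0.53). The Aire-/- isotype library was thus the highest of the 4 for these genes.

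Antigen presentation genes were mostly higher in Aire-/- members, and nearly all by less than 2-fold. All 8 MHC class II genes compared with isotype antibody and all 7 with anti-PD1 lay above the Aire+/+ level, with medians of 0.33 and 0.39, against 3376 of 7734 and 2641 of 6240 over all genes. In T cells of the same libraries the medians were -0.89 and 2.37. The summed level of markers of type 1 and type 2 conventional dendritic cells was also higher in Aire-/- members with either antibody. That of mature dendritic cell markers was lower. For type 2 with isotype antibody the direction depended on the measure, as 1 of the 3 genes compared was above 0, with a median of -0.26. The part of dendritic cells in these values was not tested. H2-Aa, the class II alpha chain, stood at 3673, 4230, 4731 and 5817 CPM, for 0.37 (0.34 to 0.39) and 0.46 (0.42 to 0.50). Ciita, the transactivator that switches on class II genes, was at 18.9, 17.2, 32 and 42.4 CPM, for 0.76 (0.43 to 1.09) and 1.30 (0.78 to 1.80). The 16 and 15 genes of MHC class I and the immunoproteasome had medians of 0.31 and 0.25, with 16 and 11 above 0. Past 2-fold were Ciita and the class I transactivator gene Nlrc5, both with anti-PD1, the latter at 1.15, against 1.39% of all genes.

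Chemokine and cytokine genes of the members went in both directions. Ccl5 was at 402, 622, 1002 and 1796 CPM, higher in Aire-/- by log2 ratios of 1.32 (1.25 to 1.38) and 1.53 (1.45 to 1.61). A single member held 41% of its UMIs in the Aire-/- anti-PD1 library, and T cells of the 4 libraries had 999, 2055, 1511 and 3703 CPM. The monocyte attractant Ccl2 stood at 2090, 1438, 1904 and 2108 CPM, with ratios of -0.13 (-0.17 to -0.10) and 0.55 (0.49 to 0.62). Ccl6 and Ccl9, chemokines of myeloid cells, were past 2-fold with anti-PD1, at 1.25 (1.08 to 1.42) and 1.01 (0.78 to 1.24), but stood at -1.07 and -0.55 in members with at least 100 C1q UMIs. Ccl8, another monocyte attractant, was lower with anti-PD1, at -2.99 (-5.29 to -1.42) on 140 UMIs against 3, with 45% of the 140 in 1 member. Il1rn, the interleukin-1 receptor antagonist, was past 2-fold with isotype antibody, at 1.03 (0.97 to 1.09), and Il18, an inducer of interferon-gamma, with anti-PD1, at 1.12 (0.64 to 1.58). Il1b was high in all groups, at 3833, 4147, 4457 and 4774 CPM. Tgm2, a transglutaminase gene of alternatively activated macrophages, was past 2-fold in both comparisons, at 244, 314, 534 and 698 CPM. Of the list of alternative activation genes, 5 of 9 were above 0 with isotype antibody and 6 of 6 with anti-PD1. Its medians were 0.14 and 0.46, against -0.05 and -0.07 over all genes, and the latter was -0.05 in members with at least 100 C1q UMIs.

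Cell cycle, lysosomal and lipid-associated genes were mostly lower in the Aire-/- members with anti-PD1. Cell cycle genes had a median of -0.41 over 13 genes with isotype antibody and of -0.91 over 11 with anti-PD1, with 2 and 4 of them past 2-fold lower, against 0.517 and 2.74% of all genes. These medians were smaller under some alternatives, -0.11 with isotype antibody at a minimum of 500 UMIs and -0.15 with anti-PD1 in members thinned to 5000 UMIs. Birc5, which encodes the mitosis and survival protein survivin, stood at 33.6, 39.6, 14 and 12.4 CPM and was found in 64, 55, 20 and 5 members. Its log2 ratios were -1.27 (-1.69 to -0.86) and -1.68 (-2.57 to -0.91). Of 19 lysosomal genes, 17 were below 0 with anti-PD1, with a median of -0.31 against -0.07 and 3599 of 6240 below 0 over all genes. None passed 2-fold, and with isotype antibody the median was 0.00. Of 13 lipid-associated genes, 11 were below 0 with anti-PD1, with a median of -0.43 against 0.00 with isotype antibody. The anti-PD1 median ranged from -0.71 without each gene's top member to -0.17 in members with at least 100 C1q UMIs. Spp1, the secreted protein osteopontin, was at 632, 373, 452 and 117 CPM, for -0.48 (-0.56 to -0.41) and -1.67 (-1.93 to -1.42). Cd9, a tetraspanin, was past 2-fold lower in both comparisons, at 136, 135, 67 and 51.2 CPM, and so was Pf4, platelet factor 4, at 91.6, 49.9, 30.5 and 22.9. Of 12 macrophage identity genes outside the rule, 9 were below 0 with anti-PD1, beside 3599 of 6240 over all genes, where Apoe, a lipid carrier, stood at -1.07 and the F4/80 gene Adgre1 between -1.28 and -0.73.

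The largest ratios of any gene included several that rest on few cells. Higher in Aire-/- with isotype antibody were Saa3, BC002163, Cnn3, Dmkn and Plxnd1. Saa3, an acute-phase protein gene, had 8, 10, 139 and 1 UMIs, and 85.6% of the 139 came from 1 member of the 2 that had any. BC002163 stood at 10.1, 9.94, 87.9 and 69.7 CPM in members and at 7.57, 12.5, 102 and 92.1 CPM in T cells, so that it separated the genotypes in both kinds of cell. Plxnd1, a semaphorin receptor gene, was spread wider, with UMIs in 119, 81, 125 and 42 members at 14.5, 18.2, 50.4 and 66.2 CPM. Cnn3, an actin-binding calponin, stood at 8.15, 4.97, 48.3 and 31.8 CPM, with a log2 ratio of 2.57 (2.19 to 2.96) with isotype antibody and too few UMIs to be counted with anti-PD1 (33 and 36), as had Dmkn, at 4.77, 2.71, 24.2 and 22.9 CPM. With anti-PD1, Vcan and Hp were joined by Timp1, an inhibitor of matrix proteases, at 19.4, 7.53, 59.4 and 44.1 CPM and 2.55 (1.96 to 3.15), and by Mgst1, a glutathione transferase gene, at 25, 16.7, 41.4 and 93.5 CPM and 2.48 (2.09 to 2.88).

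Genes at the lower end were likewise uneven. Dppa3, an early-embryo gene, had 140 and 111 UMIs in the Aire+/+ libraries and 0 in both Aire-/- libraries. With 3 counts in place of 0, it was 19.6-fold lower with isotype antibody and 6.32-fold lower with anti-PD1. The mitotic genes Kif20a and Knstrn were at -2.12 (-3.29 to -1.13) and -1.79 (-2.70 to -0.98) with isotype antibody, where Gpnmb, a glycoprotein of lipid-laden macrophages, was at -1.66 (-2.54 to -0.88). G0s2, an inhibitor of fat breakdown, had 129 and 13 UMIs there, 41.1% of the 129 in 1 member. The neutrophil alarmin S100a9 had 656, 145, 113 and 0 UMIs in 16, 2, 3 and 0 members, and 1 member held 99.3% of the 145. Its ratio with anti-PD1, 8.25-fold lower with 3 counts in place of 0, rests on that cell. Cxcl1, a neutrophil attractant, had 281 against 6 UMIs with anti-PD1, in 26 members against 1.

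The interferon-gamma-inducible list was also higher in the other myeloid cells of the Aire-/- tumors. Its median log2 ratio with isotype antibody and with anti-PD1 was 0.74 and 0.84 in members, 0.42 and 0.65 in C1q+ cells high in Cxcl9, 0.52 and 0.58 in Ly6c2+ cells, and 0.08 and 0.35 in T cells. The monocyte list was at 0.61 and 1.49 in members, at 0.65 and 0.77 in C1q+ cells high in Cxcl9, at 0.13 and 0.42 in Ly6c2+ cells, and at -0.09 and -0.71 in T cells. These sets come from the same libraries, so no difference between them was tested.

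The promoters of the interferon-gamma-inducible genes were searched for the motifs that interferon-activated factors bind, as letters in the RefSeq sequence of GRCm38.p6 from 250 bases before to 50 after each gene's start. Of the 26 genes of that list, 17 had a promoter in the table. TTCNNNGAA, the letters of a GAS element, read the same on both strands and were present for 8 of the 17 genes (47.1%), against 9.55% of 27025 genes and 8.3% of 32851 promoters. The core of an ISRE, 2 blocks of GAAA set 2 letters apart, on either strand and with overlaps allowed, was present for 11 of 17 (64.7%), against 3.99% of genes and 3.44% of promoters. In the 23 type I interferon-inducible genes with a promoter the shares were 21.7 and 60.9%, and of 7 monocyte genes 1 had a GAS match and 0 an ISRE match. Promoters of 3 genes past 2-fold in both genotype comparisons are printed with the matches in capitals: Gbp2 at chr3:142620413-142620712 on the plus strand, with 1 ISRE match, Gbp5 at chr3:142496684-142496983 on the plus strand, with 2 GAS matches and 1 ISRE match, and Tgtp1 at chr11:48992197-48992496 on the minus strand, with 1 of each. A match is a description of the letters and not of binding.
Gbp2: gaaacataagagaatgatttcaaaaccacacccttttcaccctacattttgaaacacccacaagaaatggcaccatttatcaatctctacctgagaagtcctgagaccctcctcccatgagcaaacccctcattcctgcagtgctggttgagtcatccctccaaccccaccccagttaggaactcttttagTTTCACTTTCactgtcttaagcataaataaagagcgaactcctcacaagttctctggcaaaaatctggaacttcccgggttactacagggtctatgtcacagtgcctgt
Gbp5: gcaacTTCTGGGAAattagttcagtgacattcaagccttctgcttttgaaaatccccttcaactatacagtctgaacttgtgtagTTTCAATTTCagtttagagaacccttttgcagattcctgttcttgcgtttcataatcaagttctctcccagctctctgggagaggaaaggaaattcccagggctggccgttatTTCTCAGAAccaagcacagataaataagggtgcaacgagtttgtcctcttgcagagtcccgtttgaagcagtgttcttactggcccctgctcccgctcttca
Tgtp1: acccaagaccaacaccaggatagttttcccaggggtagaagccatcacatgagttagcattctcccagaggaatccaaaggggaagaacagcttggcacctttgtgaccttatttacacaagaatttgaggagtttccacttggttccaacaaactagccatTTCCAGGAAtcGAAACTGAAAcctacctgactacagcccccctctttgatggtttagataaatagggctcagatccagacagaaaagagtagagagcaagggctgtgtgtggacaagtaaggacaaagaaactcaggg

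In Aire+/+ tumors, anti-PD1 went with few differences in the members. Of 8091 genes compared, 24 (0.297%) were past 2-fold, 10 (0.124%) higher and 14 (0.173%) lower with anti-PD1. Interferon-gamma-inducible genes were mostly a little lower, 23 of 25 below 0 with a median of -0.23, against 4278 of 8091 and -0.01 over all genes, and Nos2 was the one past 2-fold, at -1.21 (-1.82 to -0.63). Gbp2 was at -0.61 (-0.72 to -0.51), Ifitm1 at -0.71 (-0.78 to -0.65) and Cxcl10 at -0.53 (-0.58 to -0.49). Monocyte genes had a median of -0.28 with 8 of 11 below 0, where Hp was at -1.62 (-1.95 to -1.29) and Ly6c2 at 0.55 (0.51 to 0.59), but their summed UMIs were higher with anti-PD1, at 0.12 (0.10 to 0.15). Cell cycle genes had a median of 0.24 with 12 of 14 above 0, and lysosomal genes of 0.16 with 15 of 19 above 0.

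The 5 genes with the largest ratios upward were Hspa1b, Hes1, Dnase1l3, Mpp7 and TrnC. Hes1, a transcription factor that Notch signaling induces, stood at 16.2 and 45.3 CPM in the Aire+/+ libraries, in 59 and 110 members, for 1.49 (1.21 to 1.77). Hspa1b, an inducible heat shock protein gene, stood at 6.16 and 20.3 CPM, for 1.72 (1.28 to 2.18), and Dnase1l3, a secreted nuclease gene, at 3.58 and 9.64 CPM. TrnC, a mitochondrial transfer RNA, was at 26.8 and 61.9 CPM. Downward, G0s2, S100a8, S100a9 and Il12b each owed most of their UMIs to few cells: G0s2 had 129 UMIs in 12 members against 8 in 3, S100a8 656 in 21 against 76 in 4, and Il12b, a subunit of interleukin-12, 87 in 6 against 18 in 2. These 4 genes thus describe small numbers of cells more than the members as a whole.

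In Aire-/- tumors, anti-PD1 went with lower type I interferon, lysosomal and lipid-associated genes in the members. The direction of the monocyte genes depended on the band of C1q UMIs. Of 5075 genes compared, 55 (1.08%) were past 2-fold, 10 (0.197%) higher and 45 (0.887%) lower with anti-PD1. Without the member that held most of a gene's UMIs in each library, 94 were past 2-fold, 4 higher and 90 lower, as removing 1 of 95 members takes more from the anti-PD1 side. Monocyte genes had a median of 0.48 with 9 of 11 above 0, against -0.03 and 2318 of 5075 over all genes, and Vcan and Thbs1 were past 2-fold at 1.10 (0.74 to 1.47) and 1.03 (0.92 to 1.14). In members with at least 100 C1q UMIs the same median was -0.44, the summed monocyte genes were at -0.27 (-0.34 to -0.21) and Thbs1 at -0.11. The type I interferon-inducible list had a median of -0.36 with 28 of 31 genes below 0, and Cmpk2 was past 2-fold lower, at -1.16 (-1.52 to -0.82). The interferon-gamma-inducible list had a median of -0.22 with 16 of 25 below 0 and none past 2-fold, but its summed UMIs were at -0.05 (-0.08 to -0.01) and its median ranged from -0.40 to -0.01 under the alternatives. Gbp2 was at 0.14 (0.02 to 0.26). The lysosomal and lipid-associated lists each had a median of -0.26. Under the alternatives the lysosomal median ranged from -0.30 to -0.11, the latter with mean shares per cell. The lipid-associated median ranged from -0.40 to -0.09, the latter in members with at least 100 C1q UMIs, against -0.04 over all genes there. Spp1 was at -1.95 (-2.21 to -1.69) and Fabp5, a fatty acid-binding protein gene, at -1.57 (-1.83 to -1.32), from 356 to 120.0 CPM.

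Upward, the largest ratios in Aire-/- members were those of Mcemp1, ENSMUSG00000076617, Mir6236, Mgst1 and Vcan. Mcemp1, a membrane protein gene of monocytes and mast cells, stood at 33.2 and 103 CPM, in 75 and 43 members, for 1.64. ENSMUSG00000076617, which the tables name by this identifier alone, was at 34.8 and 88.2 CPM, with 25% of the latter in 1 member, and Mir6236 at 2073 and 4789 CPM, of which 21% lay in 1 member. Downward, Hcar2, a receptor for ketone bodies and niacin, stood at 59.9 and 12.4 CPM, for -2.28, and Inhba, a subunit of activin A, at 27.5 and 7.06 CPM, for -1.96 (-3.21 to -0.93). Saa3, with 139 UMIs against 1, S100a8, with 195 UMIs in 4 members against 2 in 2, and S100a9 complete the list. Each rests on few cells, given above for Saa3 and S100a9. The 4 comparisons between groups share libraries in pairs, so a high or low value in 1 library enters 2 of them.

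Members were also set against the C1q+ cells of the same library that were high in Cxcl9 and met the remaining limits. Few genes were past 2-fold in all 4 libraries, and this contrast is partly fixed by the rule. Cxcl9 was the single gene of 2458 (0.0407%) past 2-fold in all 4 libraries, while 18 of 21 interferon-gamma-inducible genes were lower in members in all 4, with a median of -0.61 against 362 of 2458 and 0.00 over all genes. So were all 6 MHC class II genes compared and 10 of 15 genes of MHC class I and the immunoproteasome, with medians of -0.38 and -0.26.

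The Ly6c2+ cells low in C1q, which hold monocytes but also dendritic cells, differed more from the members, again in part by that choice. There 165 of 5124 genes (3.22%) were past 2-fold the same way in all 4 libraries, 48 higher and 117 lower in members. Highest over these cells were the tetraspanin Cd81, the cholesterol 25-hydroxylase gene Ch25h, Zmynd15 and the inhibitory receptor Cd72, with median log2 ratios of 4.52 for Cd81 and 2.92 and 2.43 for the last 2. Ms4a7 followed at 2.41, with 334, 370.2, 191 and 44.2 CPM in the Ly6c2+ cells. Lowest were Klk1, Ccr9, Cd209a, Siglech and Cd7, of which Klk1, Ccr9 and Siglech mark plasmacytoid dendritic cells and Cd209a a class of dendritic cells. The list of plasmacytoid dendritic cell markers had a median of -4.26 in members and that of type 2 conventional dendritic cells -2.13, so part of this contrast is one with dendritic cells. Of 12 macrophage identity genes outside the rule, 8 were higher in members in all 4 libraries, 3 of them past 2-fold. In the other direction, 2 were lower in all 4, 1 of them past 2-fold, and the median was 0.29. Of the 11 monocyte genes, 10 were lower in members in all 4 libraries, with a median of -2.04, against 1523 of the 5124 genes. Lysosomal genes were higher in members, 15 of 19 in all 4 libraries with a median of 0.41, against 1744 of the 5124, whereas 17 of 25 interferon-gamma-inducible and 24 of 31 type I interferon-inducible genes were lower, with medians of -0.60 and -0.51 against 0.03 over all genes.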

How the data were processed

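The authors deposited count tables of UMIs per gene and cell barcode, with no normalization, for barcodes called as cells from 10x Genomics 3′ libraries. The counts come from Cell Ranger. The paper states its version (v2.2.0), mm10 and a RefSeq gene model in a paragraph on a 5′ kit, and whether these hold for the 3′ libraries was not established here. The tables have 25127 gene rows, and rows with the same symbol were summed to 24495 symbols. A further limit of the rule and some genes are not reported here. Members and gene lists (35 lists, 449 entries) were chosen with earlier results of these data known.

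UMIs of a gene were summed over the members of a library and divided by all their UMIs. Genes entered a comparison when the 2 libraries together held 100 of their UMIs or more. Where a side had none, 3 counts stood in as a floor, and past 2-fold means a log2 ratio beyond 1. Shares have Clopper-Pearson intervals, UMI sums Poisson intervals and ratios conditional exact intervals, all at 95%. Members were also set against other cells of their library, where the Ly6c2+ cells also had 0 UMIs of the Cd3 and NK genes and fewer than 50 of S100a8 and S100a9, and a gene counted when it was past 2-fold the same way in all 4 libraries. Cells were thinned to 5000 UMIs for correlations, variance and shares of cells with a UMI.

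The named genes are the 5 with the largest ratio each way in each comparison between groups, the leading genes against other cells, the genes with the highest level or spread, and genes of the lists. Genes outside these rules that went opposite ways in 2 groups, and Dynlt1b, Rnaset2b and Tagap1, were chosen after their values were seen. Doublets were kept, and leaving out deep cells was one alternative. The others were the paper's cell filter, other limits in the rule, a gate on thinned cells, other denominators, scalings and UMI minima. The scripts (Python 3.11.15, numpy 2.4.6, scipy 1.17.1, matplotlib 3.10.9) were tested on simulated data.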

Additional observations from a re-analysis of the deposited data

Results flagged for a closer look

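Genes were flagged where a comparison was past 2-fold in one pair of libraries and the same comparison went the opposite way in the other pair, with both counting intervals clear of 0. The differences between the pairs were not tested, and each rests on the 95 members of the Aire-/- anti-PD1 library.

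Between genotypes, ENSMUSG00000076617 had a log2 ratio of Aire-/- over Aire+/+ of -0.88 with isotype antibody and 1.06 with anti-PD1. The glutathione reductase gene Gsr had -0.41 and 1.03. In the opposite direction, Hcar2 had 0.70 and -1.20, the latter 0.03 when the rule was put to thinned cells, and the transcription regulator Id3 had 0.33 and -1.05. Lonp2, a peroxisomal protease gene, had 0.36 and -1.42, and the small GTPase gene Rhoc had 0.50 and -1.03. Lonp2 and Rhoc each had 10 UMIs in the Aire-/- anti-PD1 members.

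Between antibodies, the stress-response gene Ddit4 had a log2 ratio of anti-PD1 over isotype of 0.27 in Aire+/+ and -1.44 in Aire-/- members, and the antiviral helicase gene Ddx60 had 0.29 and -1.03. The other genes went up in Aire-/- members: ENSMUSG00000076617 had -0.59 and 1.34, Hp -1.62 and 0.75, Mgst1 -0.58 and 1.17 (-0.28 in members with at least 100 C1q UMIs), and the protease inhibitor gene Slpi -1.05 and 0.41. For Slpi, 38.9% of the Aire+/+ anti-PD1 UMIs and 44.4% of the Aire-/- anti-PD1 UMIs lay in 1 member. In the Aire-/- isotype library that share was 13.7%, so the rise of Slpi in Aire-/- members rests on 1 cell. Gsr, Id3, Lonp2, Rhoc, Ddit4 and Ddx60 were chosen after their values were seen.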

How the results depend on the processing

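No paired analysis was possible because each condition has 1 library. Of 32 ratios of member shares under alternatives, 27 stayed within the counting interval of the ratio given above. Of the shares themselves, 16 stayed within their counting intervals and 16 did not. The gate on thinned cells gave 30.3, 26.2, 19.6 and 6%, and a minimum of 100 C1q UMIs gave 13.7, 12.3, 8.01 and 1.64%. With C1q+ macrophages as the denominator the ratio of Aire-/- over Aire+/+ was 0.897 with isotype antibody and 0.825 with anti-PD1, and that of anti-PD1 over isotype in Aire-/- was 0.86, which the smaller denominator sets. For members with at least 100 C1q UMIs, an alternative added after the data were seen like that of leaving out each gene's top member, the last 2 were 0.134 and 0.204, and the cause was not tested.

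Counts of genes past 2-fold kept within 1.5-fold in 44 of 56 alternatives. For Aire-/- over Aire+/+ with isotype antibody, with anti-PD1, and for anti-PD1 over isotype in Aire+/+ and Aire-/-, they were 687, 1246, 415 and 894 at a minimum of 10 UMIs, and 28, 37, 5 and 7 at 500, because more or fewer genes were compared. Thinned members gave 110 between genotypes with anti-PD1 and 30 between antibodies in Aire-/-, with fewer genes compared. Leaving out each gene's top member gave 402 and 94. Against the Ly6c2+ cells, thinning gave 82, of which 78 were among the 165 found without it, with 2967 genes compared in place of 5124. The cause was not tested. Without mitochondrial and ribosomal protein genes the isotype split between genotypes was 42 higher and 50 lower, in place of 58 and 40, and centring turned 87 and 171 with anti-PD1 into 118 and 131.

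Log2 ratios of named genes past 2-fold stayed within their counting intervals, or in their direction where a side had 0 UMIs, in 1325 settings, moved in 198 and reversed in 18, where the cause was not tested. For Aire-/- over Aire+/+ with anti-PD1, the gate on thinned cells gave Hcar2 0.03 and Mmp13 0.67. At 100 C1q UMIs it was -1.07 for Ccl6, -0.55 for Ccl9, -2.42 for F13a1, -0.83 for Mmp19 and -0.04 for Socs1. Without the top member S100a9 was at 4.14, but the floor alone sets that value. The top member held 144 of the 145 Aire+/+ UMIs and the Aire-/- side had 0, so it describes no reversal. For anti-PD1 over isotype in Aire+/+, mean shares per cell gave Il12b 0.29 and S100a9 0.28, Cxcl3 was at 0.02 at 100 C1q UMIs, and Ccr7 at 1.51 without its top member. In Aire-/-, the gate on thinned cells gave Ccr7 2.23, Mrc1 -0.02, S100a8 0.62 and S100a9 1.89, and 100 C1q UMIs gave Mgst1 -0.28 and Thbs1 -0.11. The 95 members of the Aire-/- anti-PD1 library limit the comparisons it enters.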

Other observations

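Some genes separated the genotypes in members and in T cells alike. Dynlt1b, a dynein light chain gene with near-identical copies, stood at 63.8, 56.6, 162 and 207 CPM in members and at 39.1, 20.7, 54.7 and 69 CPM in T cells, in the same order of groups as above. Rnaset2b, a lysosomal ribonuclease gene with a close copy, ran the other way, at 49.7, 63.3, 28.2 and 15.9 CPM in members and 139, 149.6, 67.9 and 30.7 in T cells. Tagap1 was at 1.89, 1.05, 5.68 and 10.6 CPM in members and 0.946, 1.64, 7.03 and 9.74 in T cells. Dppa3, which had UMIs in 62 and 52 members of the Aire+/+ libraries, had 0 in T cells of any library. Why these genes differ between genotypes was not tested.

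Cells with at least 2 Cd3 UMIs, whatever their C1q, numbered 395, 394, 374 and 963. At least 1 C1q UMI was present in 24.3, 21.1, 21.1 and 14% of them and at least 5 in 10.9, 3.55, 8.29 and 2.49%. Doublets and free RNA were not told apart here.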
